A study of Mus musculus with 12 samples.

Results

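Small nucleolar RNA (snoRNA) genes were taken as every gene row whose name begins with Snord or Snora, which gave 96 of 20981 genes. Of these, 65 carry Snord names (box C/D class) and 31 carry Snora names (box H/ACA class). All libraries came from testes of Mael-/- mice on a C57BL/6 background at 3 months of age. Mael encodes Maelstrom, a piRNA pathway protein, and testes without it express LINE-1 (L1) elements. The clarified testis lysate, to which EDTA had been added, was TOTAL. Pooled sucrose gradient fractions of it were INPUT, and INPUT was incubated either with beads carrying an antibody to the L1 protein ORF1p (IP) or with beads alone (BO). Each group held 3 libraries of rRNA-depleted total RNA. The labels do not say which libraries came from the same animals.

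Box C/D snoRNAs guide 2'-O-methylation of RNA and box H/ACA snoRNAs guide pseudouridylation, both in particles with a class-specific set of core proteins. A few members (U3, U8, U14 and U17) act in cleavage or folding of the rRNA precursor instead of, or besides, guiding modification. Most vertebrate snoRNAs are cut from introns of host genes and accumulate in the nucleolus.

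The gene tables give 1 authors' mean per group of normalized counts, with no value per library, so the spread over libraries is not known from them and no member was tested here. The whole reads behind each mean were recovered instead. The 96 genes rested on 514 reads in the 3 IP libraries together. They rested on at least 634 reads in BO, 3606 in INPUT and 2942 in TOTAL. Intervals on folds below are exact 95% limits from the fewest reads that give each mean, and cover counting error only. The genes summed to 0.0055% of all gene counts in TOTAL, 0.0068% in INPUT, 0.0015% in BO and 0.0008% in IP. Mael itself was at 0.65 in TOTAL, 0.502 in BO and 0 in INPUT and IP. All 5 spermatocyte markers (Sycp1, Sycp3, Dmc1, Hormad1 and Spo11) were past 2-fold higher in IP than in each other group (43.3%, 20.2% and 20.1% of all genes against BO, INPUT and TOTAL), whereas 4 of 4 spermatid markers were at or below 30.1 in every group. Of 4 Sertoli cell markers, 3 were past 2-fold lower in IP than in TOTAL, as were 4 of 4 Leydig cell markers and 1 of the 2 macrophage markers in the tables, beside 26.9% of all genes. Bulk values in general cannot tell fewer cells of a type from less RNA per cell. Here all groups were taken from lysates of the same kind, INPUT from TOTAL and IP and BO from INPUT. The marker values are normalized counts, so they describe the makeup of the RNA sequenced in each group. They give neither numbers of cells nor amounts of RNA recovered.

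Genes from among those highest in TOTAL, and from those with the highest and lowest ratios of IP to the other groups, are shown because the comparisons turn on them. They are given as GENCODE M21 transcripts on GRCm38 (mm10), 5′ to 3′. Capitals in a box C/D sequence mark the first TGATGA (C box) where these letters occur and the last CTGA (D box), and in a box H/ACA sequence the last ACA. Snord71 and Snora28 were added after their values were seen, the first for an IP mean above its TOTAL mean. Snora28 was added for an IP mean 1.79-fold below its TOTAL mean.
Snord17, chr2:144265979-144266216, minus strand: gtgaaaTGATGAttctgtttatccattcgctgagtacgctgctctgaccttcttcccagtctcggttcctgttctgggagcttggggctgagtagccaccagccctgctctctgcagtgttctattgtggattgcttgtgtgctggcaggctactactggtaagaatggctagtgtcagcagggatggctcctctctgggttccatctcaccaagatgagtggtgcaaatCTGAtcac
Snord22, chr19:8725866-8725991, plus strand: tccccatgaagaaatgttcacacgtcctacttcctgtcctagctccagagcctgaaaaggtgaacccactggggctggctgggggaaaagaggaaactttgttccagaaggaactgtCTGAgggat
Snord2, chr16:23108953-23109021, plus strand: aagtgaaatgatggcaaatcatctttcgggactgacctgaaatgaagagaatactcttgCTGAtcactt
Snord89, chr1:39548745-39548854, minus strand: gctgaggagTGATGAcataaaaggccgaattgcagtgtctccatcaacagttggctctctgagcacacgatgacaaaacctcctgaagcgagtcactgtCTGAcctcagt
Snord71, chr8:109839295-109839379, plus strand: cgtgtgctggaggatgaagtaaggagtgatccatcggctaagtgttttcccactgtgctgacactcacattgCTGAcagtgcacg
Snora23, chr7:110046364-110046547, plus strand: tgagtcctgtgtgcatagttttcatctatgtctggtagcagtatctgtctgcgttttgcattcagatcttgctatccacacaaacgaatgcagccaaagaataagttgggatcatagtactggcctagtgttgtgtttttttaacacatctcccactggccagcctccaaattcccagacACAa
Snora78, chr17:24719676-24719803, minus strand: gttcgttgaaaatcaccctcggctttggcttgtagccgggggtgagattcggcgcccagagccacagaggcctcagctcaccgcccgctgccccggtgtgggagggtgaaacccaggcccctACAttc
Snora7a, chr6:115807975-115808114, minus strand: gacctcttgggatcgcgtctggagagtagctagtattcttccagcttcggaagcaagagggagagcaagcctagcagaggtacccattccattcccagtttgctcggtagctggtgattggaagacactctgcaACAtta
Snora28, chr12:111540941-111541067, plus strand: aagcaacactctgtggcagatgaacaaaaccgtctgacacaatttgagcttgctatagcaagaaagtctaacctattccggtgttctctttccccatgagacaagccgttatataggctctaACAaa

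Among the 65 box C/D transcripts, 65 held CTGA on the sense strand and 43 held TGATGA before it. In the 31 box H/ACA transcripts these letters were found in 17 and 0. ACA lay within the last 10 bases of 29 of the 31 box H/ACA transcripts, compared with 7 of the 65 box C/D transcripts. The names thus went with the sequence features of their class. The classes also differed in size. The median annotated length was 68 nt for box C/D and 120 nt for box H/ACA (RefSeq, GRCm38.p6), and 4 box C/D genes against 28 box H/ACA genes reached 100 nt. The GENCODE transcripts had medians of 78 and 133 nt. Snord89 is 94 nt in RefSeq and 110 nt in GENCODE, while Snora78 is 157 and 128 nt. Lengths below are those of RefSeq, so values per length and splits by length depend on that annotation.

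In the clarified testis lysate, Snord17 was the most abundant member and a few genes of each class carried much of the sum. Snord17 lies in an intron of Snx5, a sorting nexin gene, and had a TOTAL mean of 113.6, which was 24.8% of the box C/D sum of 458.1. The next box C/D genes were Snord22 in the noncoding host Snhg1 (48.3), Snord2 in Eif4a2 (23.1), Snord104 (22.1) and Snord96a in Rack1 (20.1, host listed as Gnb2l1). Snord32a in Rpl13a was at 16.0, Snord89 at 9.56 and Snord15b in Rps3 at 9.18. The 31 box H/ACA genes summed to 448.8, nearly the box C/D sum from fewer genes. They were led by Snora74a (69.6), Snora23 in the importin gene Ipo7 (62.4), Snora78 in Snhg9 (48.6) and Snora7a in Rpl32 (29.9). Snora81 in Eif4a2 was at 29.7, Snora3 in Rpl27a at 27.8, Snora17 at 21.9 and Snora28 in the translation factor gene Eif5 at 20.0.

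Longer members had higher means. Over the 96 genes the rank correlation of length with TOTAL mean was 0.51 as a description, within a single set of libraries. Per 100 nt of annotated length, the TOTAL level remained highest for Snord17 (51.4), followed by Snord22 (38.4), Snora74a (35.2), Snord2 (33.9) and Snora23 (33.9). The class medians per 100 nt were 5.18 for box C/D and 6.63 for box H/ACA, closer than the medians of the means themselves, 3.92 and 7.43. No read was found in TOTAL for 3 box C/D genes and 1 box H/ACA gene, which allows a mean of up to 0.859 for each. The imprinted clusters Snord113 to Snord116, and Snord13, Snord118 and Snora73, were not analysed here as gene rows, and of the Snord14 genes Snord14a (TOTAL mean 4.50) was analysed.

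**Figure D1:**
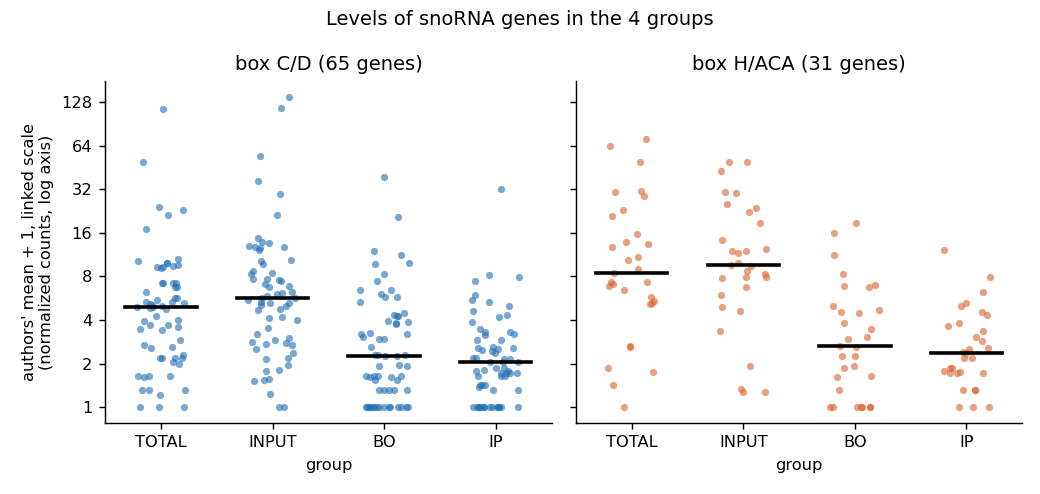
Authors' means plus 1 on a log axis for 65 box C/D and 31 box H/ACA genes in the 4 groups, set on the scale of the IP with TOTAL table; each point is 1 gene and bars are medians. Medians in TOTAL and INPUT (3.92 and 4.64 for box C/D, 7.43 and 8.63 for box H/ACA) stood above those in BO and IP (1.25 and 1.04, 1.64 and 1.36).

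INPUT and TOTAL stand in separately normalized tables and were set on 1 scale through the IP means both tables share. On that scale box C/D genes summed to 680.2 in INPUT, 1.49 times TOTAL, and box H/ACA genes to 425.0, 0.947 times TOTAL. INPUT exceeded TOTAL for 43 of 64 box C/D and 16 of 31 box H/ACA genes with a read in either group, compared with 41.1% of all genes. Of 48 members whose INPUT and TOTAL levels averaged at least 5, 7 were past 2-fold higher in INPUT and 1 lower, beside 2.44% higher and 18.6% lower of 15629 genes. Of the 7, 4 had a TOTAL level under that minimum and passed through INPUT, so the count is a description. Part of the box C/D rise came from a single gene. Snord89 had a level of 138.5 in INPUT against 9.56 in TOTAL, a 14.5-fold difference resting on at least 423 and 33 reads, and without it the INPUT sum was 1.21 times TOTAL. Snord15b also stood higher in INPUT (20.2 against 9.18), whereas Snora23 was lower (29.3 against 62.4). Snord17 was alike in both, at 115.7 and 113.6. These levels have no spread over libraries, and whether the differences exceed it was not tested.

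RNA bound in the ORF1p IP was compared with TOTAL, the clarified lysate, and then with INPUT, the pooled fractions from which the IP was made. Against TOTAL, box C/D genes summed to 127.3 in IP and 458.1 in TOTAL, a 3.60-fold lower value (95% limits 3.20 to 4.06). For box H/ACA genes the sums were 64.7 and 448.8, a 6.94-fold lower value (5.91 to 8.18). The IP mean was below the TOTAL mean for 87 of the 94 genes with a read in either group, whereas this held for 52.7% of all genes. On the log2 scale with 1 added to each mean, the median ratio of IP to TOTAL was -1.13 over all box C/D genes and -1.69 over all box H/ACA genes. It was -0.03 over all 20981 genes. Of the 28 genes with an average of the 2 means of at least 5, 24 were past 2-fold lower in IP and 0 past 2-fold higher, compared with 26.9% lower and 20.1% higher of 15670 genes. Among the 4093 genes whose averages lay in the members' own range, 37.4% were lower. Most members passed that filter through their TOTAL mean, which favours a lower call, so these counts are a description. The counting limits of the class folds did not overlap, but the classes also differ in length, and the box H/ACA fold rests in part on a few genes. Among these were Snora74a (69.6 in TOTAL, 2.37 in IP), Snora23 (62.4 and 1.36) and Snora78 (48.6 and 1.57). The class fold without them was not computed. By RefSeq length, the TOTAL sum was 3.23 times the IP sum for 61 box C/D genes under 100 nt and 4.37 times for the 4 longer ones. It was 5.10 times for 3 box H/ACA genes under 100 nt and 7.07 times for the 28 longer ones. Snord89, counted here as under 100 nt, is 110 nt in GENCODE. Over the 96 genes the rank correlation of length with the log2 ratio of IP to TOTAL was -0.42, as a description.

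Compared with INPUT, both classes were again lower in IP, but the counting limits of their folds overlapped. The box C/D sum was 5.32-fold lower in IP (4.75 to 5.98) and the box H/ACA sum 6.57-fold lower (5.60 to 7.75). IP was below INPUT for 89 of 94 genes, compared with 46.7% of all genes. The median log2 ratio was -1.44 for box C/D and -1.95 for box H/ACA genes, beside 0.03 for all genes. Among 32 genes passing the filter, 30 were past 2-fold lower and 0 higher, beside 15.3% lower and 20.2% higher among all genes and 25.1% lower among the 4229 genes in the members' range of averages. Here too the filter was passed mostly through INPUT, so nothing is read from this count.

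**Figure D2:**
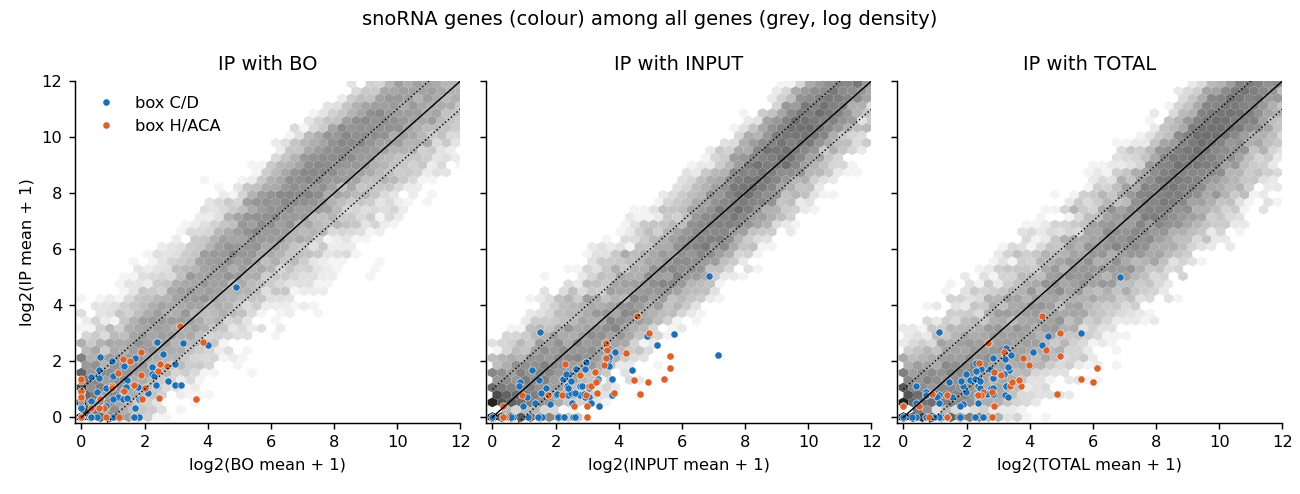
IP means against BO, INPUT and TOTAL means on log2 axes after adding 1; grey shows the density of all 20981 genes, colour the 96 snoRNA genes, the solid line equality and dotted lines 2-fold. Against INPUT and TOTAL most members lie below the 2-fold line (67 and 59 of the 96 with no filter on low means), and against BO they lie around equality. The lower quartiles of all genes, log2 -0.573 against INPUT and -0.978 against TOTAL, lie above that line.

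In beads-only libraries snoRNA means were close to those in IP, and on the whole somewhat higher. These are normalized counts, so similar means do not show that similar amounts of snoRNA were recovered. The box C/D sum was 1.53-fold higher in BO than in IP (1.32 to 1.77) and the box H/ACA sum 1.55-fold higher (1.27 to 1.91). The whole set of genes went the other way, with a median log2 ratio of IP to BO of 0.54, against -0.26 for box C/D and 0.00 for box H/ACA genes. IP was below BO for 50 of 90 genes with a read in either, and above it for 40, whereas 29.1% of all genes were below. Only 6 members had an average of at least 5 here. Of these, 3 were past 2-fold lower in IP and 0 higher, beside 11.4% lower and 43.3% higher of 14700 genes. They were Snord2 (15.1 in BO, 4.94 in IP), Snora81 (13.4 and 5.38) and Snora2b (11.4 and 0.552, on at least 25 and 2 reads), and Snora2b falls outside the rule for named genes. Snora2b passed the filter through BO alone, and Snord2 had an IP mean under the minimum, so nothing is read from this count against the shares over all genes. Without the filter 18 members were lower and 6 higher, and with an average of at least 20 there were 0 and 0. The shares of all genes were not counted at these settings. Without the filter, the quartiles of the log2 ratio were -0.112 and 1.35 over all genes, beside -0.784 and 0.408 over the 96 members. Snord2 and Snora81 lie in the same host gene, Eif4a2. Most single members had too few reads for a difference between IP and BO to be detectable at this depth.

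Single members differed widely in how far IP lay below the other groups. Snord17 gave the firmest value, with 86 IP reads spread over all 3 libraries. Its means were 113.6 in TOTAL and 31.2 in IP, 3.65-fold lower (2.87 to 4.67), and 116.1 in INPUT and 31.5 in IP, 3.68-fold lower (2.90 to 4.72). Against BO, its means of 29.0 and 23.9 differed 1.21-fold, with limits from 0.856 to 1.70 that include equality. Snord17 was thus also the highest member in BO and in IP. Snord22 fell further, from 48.3 in TOTAL to 6.94 in IP (6.96-fold, 4.26 to 12.1).

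The box H/ACA genes most abundant in TOTAL were close to the floor in IP. Snora23 went from 62.4 in TOTAL to 1.36 in IP, resting on 4 IP reads (45.7-fold, 17.6 to 170). Snora74a was at 69.6 and 2.37, on 6 IP reads (29.4-fold, 13.3 to 80.9). For Snora78 the means were 48.6 and 1.57, on 4 IP reads (30.9-fold, 11.8 to 115). The limits of these 3 genes overlap one another and lie above those of Snord17. Snora3 was at 27.8 and 0.777 on 2 IP reads, all in 1 library. Their class was not uniform, since Snora28 was at 20.0 in TOTAL, 22.8 in INPUT and 11.2 in IP, a 1.79-fold difference from TOTAL (1.14 to 2.87) on 29 IP reads. Snora81 (4.27-fold) and Snora17 (5.13-fold) lay between.

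Snord89, the gene with the highest INPUT mean, was at 139.0 in INPUT and 3.64 in IP, 38.2-fold lower (20.6 to 80.2). From TOTAL to IP its means were 9.56 and 3.63, 2.63-fold (1.27 to 5.99). Its ratio therefore depended on which starting material was used, by more than the counting limits. Among the other named genes, Snord96a was 7.23-fold lower in IP than in INPUT and Snora7a 13.7-fold lower (7.00 to 30.5).

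Only 7 of the 96 genes had an IP mean above their TOTAL mean, and 6 of the 7 did so on 3 or fewer IP reads. The exception was Snord71, in an intron of the clathrin adaptor gene Ap1g1. Its means were 1.18 in TOTAL and 7.18 in IP, 6.07-fold higher (2.02 to 24.5), with 19 IP reads in 3 libraries and 4 TOTAL reads. It was also higher in IP than in INPUT (7.21 and 1.85, 3.90-fold, 1.57 to 11.0), but not beyond counting error than in BO (5.50 and 4.20). Because Snord71 was picked out of 96 genes after its values were seen, these limits are a description. The host Ap1g1 had log2 ratios of 1.53, 1.08 and 0.80 against TOTAL, INPUT and BO, beside 1.91, 1.53 and 0.32 for Snord71.

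**Figure D3:**
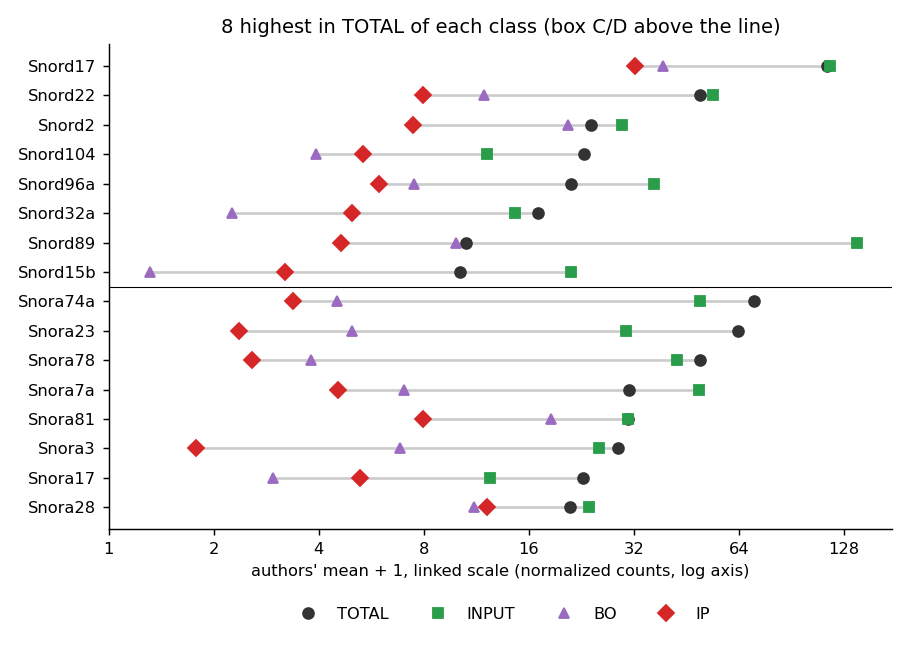
Authors' means plus 1 on a log axis for the 8 genes of each class highest in TOTAL, on the scale of the IP with TOTAL table, 1 symbol per group. INPUT exceeds IP for all 16 genes, Snord89 has its INPUT value (138.5) far right of its TOTAL value (9.56), and Snora28 spans the shortest range.

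A host gene on the same strand was found for 93 of the 96 genes, 73 of them protein-coding, and 89 had a host listed in the tables (65 different hosts). Of the 89, 34 lay in ribosomal protein genes or Gnb2l1. Counting reads in a small RNA inside a host transcript depends on how the authors' counting split reads, and reads with several places in the genome stand in a row of their own, so members with near-identical copies are uncertain. In addition, 45 of the members overlap an annotated exon of their host in some transcript. Hosts and members had different ratios. The median host was at 2.12 (log2 IP to BO), whereas the members with a host were at -0.12, and the member was below its host for 86 of 89. Over the 96 genes the median mean was 0.992 in BO and 0.838 in IP. Adding 1 to means this low pulls a member's ratio toward 0 and so below a high host ratio, and nothing is read from this count. Against INPUT the medians were 0.58 and -1.59, with 85 of 89 members below their host. Against TOTAL they were -0.83 and -1.37, with 58 of 89 below. Among members with an average of at least 5, 6 of 6 were below their host against BO. Against INPUT this held for 27 of 27, and against TOTAL for 18 of 22, also as a description. For Snord17, the host Snx5 stood at log2 ratios of 1.94, 1.37 and 0.82 against BO, INPUT and TOTAL, beside -0.26, -1.85 and -1.83 for Snord17. Ipo7 stood at 1.36 against TOTAL, beside -4.74 for Snora23.

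**Figure D4:**
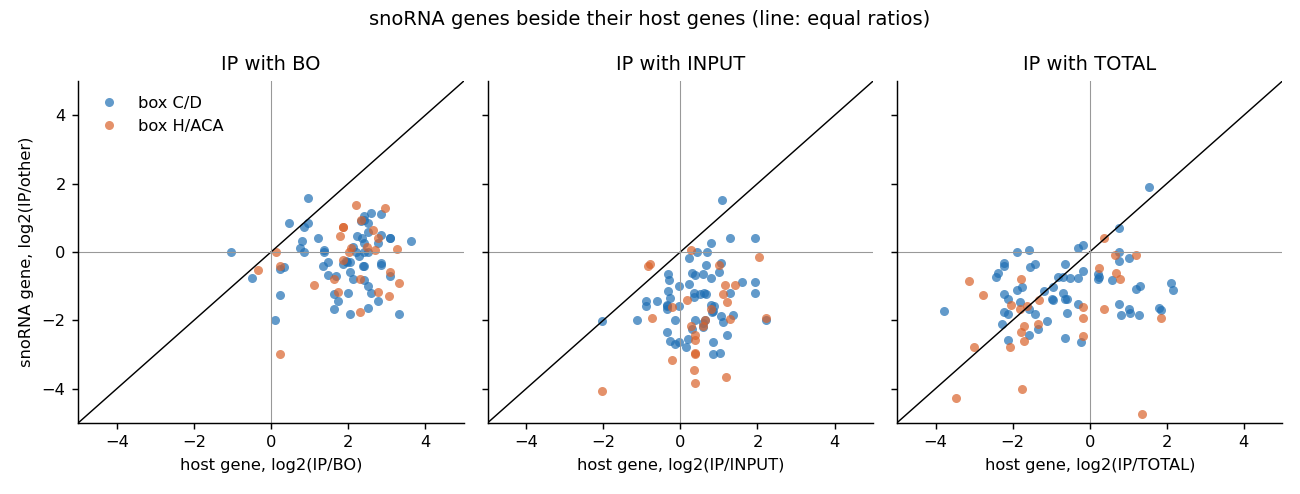
Log2 ratio (1 added to each mean) of IP to BO, INPUT and TOTAL for each snoRNA gene against that of its host gene, for 89 genes with a host in the tables; the diagonal marks equal ratios. Members lie below the diagonal for 86, 85 and 58 of the 89 genes. Member means in BO and IP are mostly low (medians 0.992 and 0.838), so adding 1 pulls their ratios toward 0.

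The mRNAs of snoRNP proteins were mostly higher in IP than in BO, and some were lower than in TOTAL. Fibrillarin (Fbl, the methyltransferase of box C/D particles), Nop56, Nop58 and Snu13 (listed as Nhp2l1) form the box C/D core. Their means in TOTAL and IP were 290.9 and 79.6 for Fbl, 780.5 and 484.0 for Nop56, 2631 and 5368 for Nop58, and 360.7 and 339.3 for Nhp2l1. Dyskerin (Dkc1, the pseudouridine synthase), Nhp2, Nop10 and Gar1 form the box H/ACA core, with 648.2 and 781.0, 1176 and 205.8, 1108 and 256.0, and 298.8 and 161.1. Against BO, 7 of these 8 mRNAs were past 2-fold higher in IP, beside 43.3% of all genes. The counts were 2 higher and 0 lower relative to INPUT (20.2% and 15.3% of all genes), and 1 higher and 3 lower relative to TOTAL (20.1% and 26.9%). The counts relative to INPUT and TOTAL are thus near the shares over all genes. Of 14 assembly and processing factors, 11 were past 2-fold higher than in BO, 4 than in INPUT and 1 than in TOTAL, with 0 lower in all 3 comparisons. For 4 proteins of the U3 particle (Rrp9, Mphosph10, Imp3 and Imp4) the counts higher were 3, 1 and 0, and 2 were lower than in TOTAL.

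Other small noncoding RNAs were also lower in IP than in INPUT and TOTAL, and differed among themselves against BO. Of 9 Scarna genes, which encode the related small Cajal body RNAs, 5 were past 2-fold lower in IP than in BO, 7 than in INPUT and 5 than in TOTAL, with 0 higher, where 6, 7 and 6 passed the filter and 11.4%, 15.3% and 26.9% of all genes were lower. Their TOTAL means ran from 1.19 for Scarna3b to 1500 for Scarna10, whose mean in IP in the same table was 529.9. Of 13 listed structured RNAs, 5 had a gene row (Rnu73b, Rmrp, Rpph1, Terc and Vaultrc5). All 5 were past 2-fold lower in IP than in INPUT, and 4 of the 4 passing the filter were lower than in TOTAL. Rnu73b and Scarna8 against INPUT, and Vaultrc5 against INPUT and TOTAL, passed the filter only through the group in which they were higher, so these counts are a description. Rmrp, the RNA of RNase MRP, was 2.94 log2 higher in IP (2356) than in BO (305.7) while 3.77 lower than in TOTAL. Rpph1, the RNA of RNase P, was likewise higher in IP (879.5) than in BO (359.1), by 1.29 log2. Thus 2 of the 3 structured RNAs passing the filter were past 2-fold higher than in BO, beside 43.3% of all genes. Telomerase RNA (Terc), which has a box H/ACA domain, was at 73.2 in TOTAL and 5.84 in IP of the same table. In the table of IP with BO it was at 8.49 in BO and 4.49 in IP, 1.89-fold lower in IP. Among 6 nuclear long noncoding RNAs, 4 were past 2-fold lower in IP than in TOTAL and 1 higher, beside 26.9% and 20.1% of all genes. Airn, 1 of the 4, passed the filter only through TOTAL. Against INPUT, 3 of the 5 passing the filter were lower and 1 higher (15.3% and 20.2% of all genes). Against BO, 2 of the 5 passing were lower and 1 higher (11.4% and 43.3%).

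Values per library exist for snoRNA-derived repeat names, which collect reads on annotated repeat copies of U3, U8, U13, U14 (box C/D) and U17 (box H/ACA). A further box C/D name, U13_, went the other way, with means of 4.93 in TOTAL, 7.61 in INPUT, 6.72 in BO and 10.3 in IP. It fell under the least mean of 10 and was tested by limma only without that filter. Its log2 values of IP to TOTAL, INPUT and BO were then 0.96, 0.31 and 0.77, none called (adjusted p = 0.329, 0.774 and 0.409). U3, needed for early cleavage of the rRNA precursor, was at 27347, 10276 and 10557 in TOTAL and at 22558, 5721 and 4014 in INPUT. In BO it was at 653, 444 and 412, and in IP at 502, 1047 and 920. The ranges of IP and BO overlapped, while both lay wholly below INPUT and TOTAL. Replicate 1 of TOTAL and of INPUT stood above the other libraries of its group. The mean was 16060 ± 9776 (SD, n = 3) in TOTAL and 823 ± 285 in IP. In limma, U3 was 18.3-fold lower in IP than in TOTAL (log2 -4.19 ± 0.57 SE, adjusted p = 0.000321) and 10.2-fold lower than in INPUT (-3.35, adjusted p = 0.00115). With libraries scaled to their totals the value against TOTAL was -2.64. Without replicate 1 the log2 values were -3.41 and -2.29, both still called, and without replicate 3 the value against INPUT was -3.97. Against BO the log2 difference was 0.67 ± 0.57 (adjusted p = 0.396).

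U17 was at 128, 199 and 163 in TOTAL, 151, 163 and 103 in INPUT, 27.4, 19.5 and 22.5 in BO, and 8.83, 43.5 and 20.5 in IP. It was 7.66-fold lower in IP than in TOTAL (adjusted p = 0.000556) and 6.51-fold lower than in INPUT (adjusted p = 0.000732) by limma, and its IP libraries spread around those of BO (log2 -0.18, adjusted p = 0.778). Its log2 value against TOTAL went from -2.94 to -1.42 with libraries scaled to their totals, and that against INPUT from -2.70 to -2.08 without replicate 1, both still called. U8, required for maturation of large-subunit rRNA, was at 35.1 ± 19.2 in TOTAL and rested on 2 IP reads in all. It was called lower than TOTAL (log2 -4.22, adjusted p = 0.000974) and INPUT (-3.08, adjusted p = 0.0053, but 0.0526 and 0.0646 without replicate 2 and without replicate 3). With so few IP reads its size follows the pseudocount, from -5.74 at 0.1 to -1.97 at 10 against TOTAL and from -4.54 to -1.20 against INPUT. Scaling by library totals gave -3.10 against TOTAL, and without replicate 1 it fell under the least mean and was not tested. U13 was called against TOTAL alone (-1.88, adjusted p = 0.0411), and lost the call without replicate 2 (adjusted p = 0.196) and without replicate 3 (0.127). U14 had adjusted p values of 0.252 against TOTAL and 0.0701 against INPUT, and was called lower than INPUT at a pseudocount of 10 (log2 -1.04, adjusted p = 0.0386). Against BO, 0 names were called in the main limma fit, with 0 at an unadjusted p under 0.05. By edgeR's quasi-likelihood test 0 were called, and U13 alone had an unadjusted p under 0.05 (0.0318). U3 had an unadjusted limma p of 0.0209 in the fit of the 2 groups alone (adjusted p = 0.0603). With libraries scaled to their totals its limma p was 0.0129 (log2 1.17, adjusted p = 0.0796). Without replicate 1, U3 was called higher in IP than in BO (log2 1.20, adjusted p = 0.00035). Across 1180 subfamilies the share called lower was 3.47% against TOTAL, 2.88% against INPUT and 3.81% against BO, and the share called higher 2.88%, 3.22% and 5.08%.

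Among the copies of U3 counted as separate loci, 1 of 18 held 98.3% of the summed TOTAL means and 91.7% of the summed IP means. These loci summed to 3417 in TOTAL and 189.5 in IP, well below the 16060 and 823 of the name U3, which is normalized separately. For U17 the loci summed to 150.7 and 23.0, beside 163.2 and 24.3 for the name. The share of 1 locus thus describes the loci as counted and not the whole U3 signal. U3 made up 96.6% to 99.7% of the summed box C/D names (U3, U8, U13, U13_ and U14) in each library. The ratio of this sum to U17 is thus in effect U3 against U17. In TOTAL, the summed box C/D names exceeded U17 by 214, 52.0 and 65.2 times, in INPUT by 150, 35.4 and 39.5, in BO by 24.6, 23.3 and 18.6, and in IP by 58.8, 24.8 and 46.0, the first on 6 U17 reads. The ratio in IP lay above BO in every library, 43.2 ± 17.2 against 22.2 ± 3.14 (SD, n = 3, exact two-sided permutation p = 0.1, the smallest that 3 against 3 allows). Against TOTAL and INPUT the libraries overlapped (exact permutation p = 0.2 and 0.7).

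**Figure D5:**
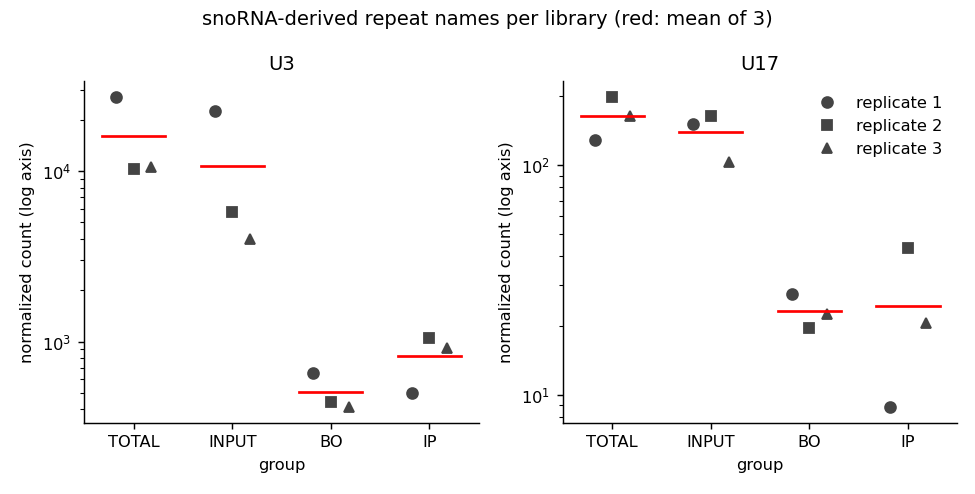
Normalized counts per library on a log axis for the repeat names U3 and U17 in the 4 groups, 1 symbol per replicate number, red bars marking means of 3 libraries. BO and IP libraries lie below every TOTAL and INPUT library, and replicate 1 is the highest U3 value of TOTAL (27347) and INPUT (22558).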

How the data were processed

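The gene tables hold, per the file headers, normalized signal: after alignment to mm10 (STAR 2.6.0c) the authors divided counts per gene by DESeq2 1.24.0 size factors and deposited the mean of 3 libraries per group, separately for IP with BO, INPUT and TOTAL. The deposited repeat table holds upper-quartile normalized signal per library, after the authors reassigned ambiguous reads. The authors' fold change and p-value columns were not used. The rows that name no gene (22.1% to 38.6% of each column) were left out.

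Each mean was solved for the whole reads behind it. All values at or below 2 were whole-read sums within rounding. The repeat values also came out whole (100% of low values, within rounding), giving 1384904 to 7282171 reads per library over subfamilies. Ratios used log2((mean + 1)/(mean + 1)), an average of 2 means of at least 5, and a 2-fold threshold. Tables were linked by the median over genes of the ratio of their IP means (factors 1.31 and 0.996). Subfamilies whose mean reached 10 were tested with limma 3.58.1 on log2(value + 1), 12 libraries in 1 fit, Benjamini-Hochberg adjusted, called past 2-fold with adjusted p under 0.05. p-values measure the spread between libraries, which may be technical. Tests on simulated data recovered 100% of 200 genes changed 4-fold (IP with TOTAL, 15670 genes) and 100% of 200 subfamilies (1180). In them 10 unchanged genes were past the threshold and 1 unchanged subfamily was called.

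Named genes were the 8 highest TOTAL means of each class, up to 4 highest and 4 lowest ratios per comparison among genes with an average of at least 20, and fixed lists. Members and lists were chosen with earlier results of these data known. A value without replicates was taken as unchanged by an alternative within 1.5-fold. Alternatives were other pseudocounts, filters, scalings, table links, fits, edgeR 4.0.16, and leaving out replicates.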

Additional observations from a re-analysis of the deposited data

How the results depend on the processing

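Without a filter on low means, 18, 67 and 59 genes were past 2-fold lower in IP than in BO, INPUT and TOTAL, and 6, 1 and 1 higher. Over all 20981 genes without the filter, the lower quartiles of the log2 ratio were -0.112, -0.573 and -0.978. The upper quartiles were 1.35, 0.743 and 0.704. The shares of all genes past 2-fold were not counted at this setting. With an average of at least 20 the counts lower were 0, 7 and 5. Medians here are over the genes passing each filter, unlike those over all members above. Centred on the median gene, 5 were lower than in BO, and the medians over 3 genes per class went from -0.57 to -1.36 for box C/D and from -1.18 to -1.97 for box H/ACA. Over the 30 box H/ACA genes with a read in IP or BO the median was -0.12, and at an average of at least 20 the medians were -2.70 (box C/D) and -3.87 (box H/ACA) against INPUT and -4.39 (box H/ACA) against TOTAL. A pseudocount of 5 moved box C/D against INPUT from -1.98 to -1.30 and box H/ACA against TOTAL from -2.21 to -1.43. The cause was not tested. Linking tables by summed IP means left every class ratio within 1.5-fold. Leaving out Snord89 or Snord17, both chosen after seeing the data, did the same for box C/D. The box H/ACA sums were not computed without their highest genes.

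Leaving out each replicate number gave 0 to 1 repeat names higher in IP than in BO and 2 to 3 lower than in TOTAL. Against BO, where U14 and U17 were not called, U14 changed sign at a pseudocount of 10 (0.14), by totals (0.20), by median ratio scaling (0.034), by edgeR (0.58) and without a replicate number (-0.92 to 1.39), and U17 by totals (0.29), by edgeR (0.16) and without a replicate number (-0.83 to 0.50). U13 against TOTAL also lost its call at a pseudocount of 0.1 (adjusted p = 0.0531), in limma on the 2 groups alone (0.0969) and at a pseudocount of 10, where the log2 value was -0.99. U14 against INPUT gained a call at a pseudocount of 10 (-1.04). Scaling to totals moved the median subfamily to 1.49 (log2 IP to TOTAL), and U3 was then at -2.64, U8 at -3.10 and U17 at -1.42. Same-numbered libraries of INPUT and TOTAL deviated together (r = 0.629, 0.339 and 0.321), but in no comparison with IP were all 3 pairs over 0.1, and over all groups r ran from -0.142 to 0.629, over 0.1 in 8 of 18 pairs and best with its own number in 9, so the numbers were not taken to pair the libraries. With the replicate block, U3 was at -4.19 against TOTAL and 3 names were lower than INPUT and 4 lower than TOTAL. Depth limits single genes in BO and IP, where 22 and 17 of 96 had no read.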

Other observations

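Most small Cajal body RNAs, and the vault RNA, stood with Snord89 at a higher level in INPUT than in TOTAL. On the scale that links the tables, 9 of 9 Scarna genes were above TOTAL, compared with 41.1% of all genes, and 7 of the 8 passing the filter were past 2-fold higher, compared with 2.44% of 15629 genes. Scarna3a (8.40 in INPUT, 8.05 in TOTAL) and Scarna3b (1.47 and 1.19) were nearly equal. Scarna6, by contrast, was 3.05 log2 higher in INPUT, Scarna10 2.48, Scarna2 2.45, Scarna13 2.35 and Vaultrc5 2.84, against 3.72 for Snord89, while Rpph1 was 2.16 lower and Terc 0.72 lower. These levels have no spread over libraries. These genes were singled out after their values were seen.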
